A study of Mus musculus with 20 samples.

Results

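The genes described here encode antiviral effectors, proteins that act on viruses or infected cells: Mx1, Mx2, Rsad2, Isg15, Xaf1, Ifi27l2a, Bst2, Ifi44 and Herc6. They were taken by symbol from the annotation of the array rows. Of these 9 genes, 8 were measured, by 14 of the 45220 rows of the table, and all 8 were among the 17051 genes tested; Ifi44 had no row listed. The cells were MLE12, an established line of mouse alveolar epithelial cells. One group was transfected with NICD1-pIRES-DsRed2, a plasmid that expresses the intracellular domain of Notch1, which is the active form of that receptor. The other received the empty vector, and both were transfected with Lipofectamine2000 and harvested after 12, 24 or 48 h. RNA of the NICD1 and empty vector cells of 1 time was hybridised together on each of 20 dual-colour Agilent arrays, with 6 arrays for the first time and 7 for each of the later ones, from replicates that the series describes as independent. All values are log2 ratios of NICD1 over empty vector, so a value below 0 means less RNA in NICD1 cells than in empty vector cells.

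Cells that sense foreign nucleic acid secrete type I interferon, which binds receptors on the same and neighbouring cells. The receptors signal to transcription factors that bind the interferon-stimulated response element in the promoters of many genes. The effectors among these genes act at different steps of infection. The Mx proteins are large GTPases that block viral nucleocapsids. Rsad2 (viperin) makes a nucleotide that stops viral RNA synthesis. Isg15 is a ubiquitin-like modifier that Herc6 attaches to proteins in mouse cells. Bst2 (tetherin) ties budding virions to the cell surface. Transfected DNA can itself be sensed by cells, and both groups here received plasmid.

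The bases before the start of 3 measured genes are shown because they hold the letters of the response element core, and those of Herc6 because they do not. The sequences are from RefSeq (GRCm38.p6), whose promoter table matched 6 of the 9 genes by symbol, and each runs 250 bases up to the annotated start, 5′ to 3′ on the strand of the gene. Capitals mark GAAANNGAAA, searched on both strands; overlapping matches run together. The windows are chr12:26456453-26456702 for Rsad2 (minus strand), chr4:156200819-156201068 for Isg15 (minus strand), chr8:71537473-71537722 for Bst2 (minus strand) and chr6:57580742-57580991 for Herc6 (plus strand).
Rsad2: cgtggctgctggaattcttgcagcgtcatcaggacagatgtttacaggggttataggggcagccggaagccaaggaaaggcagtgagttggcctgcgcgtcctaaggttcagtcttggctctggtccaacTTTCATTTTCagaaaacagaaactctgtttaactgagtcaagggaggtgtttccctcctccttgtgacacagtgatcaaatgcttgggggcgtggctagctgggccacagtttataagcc
Isg15: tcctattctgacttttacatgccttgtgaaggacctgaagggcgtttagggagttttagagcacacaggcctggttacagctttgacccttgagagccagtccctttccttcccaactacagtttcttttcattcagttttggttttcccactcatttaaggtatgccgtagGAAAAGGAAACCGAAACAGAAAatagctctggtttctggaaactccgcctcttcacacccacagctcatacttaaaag
Bst2: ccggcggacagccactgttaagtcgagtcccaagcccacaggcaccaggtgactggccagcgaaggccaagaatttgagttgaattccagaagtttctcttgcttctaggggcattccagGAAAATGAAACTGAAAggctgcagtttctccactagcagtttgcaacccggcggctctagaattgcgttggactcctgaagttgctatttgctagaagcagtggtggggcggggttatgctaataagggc
Herc6: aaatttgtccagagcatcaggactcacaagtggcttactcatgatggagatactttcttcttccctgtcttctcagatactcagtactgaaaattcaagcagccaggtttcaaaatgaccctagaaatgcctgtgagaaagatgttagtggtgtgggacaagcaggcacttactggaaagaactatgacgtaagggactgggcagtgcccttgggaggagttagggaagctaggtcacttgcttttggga

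Isg15 had 3 overlapping matches, which began 78, 72 and 66 bases before the start, Bst2 had 2, which began 130 and 124 bases before it, and Rsad2 had 1 on the opposite strand, which began 120 bases before it. No match lay in the windows of Herc6, Xaf1 and Ifi44; the window of Xaf1 lies partly inside the annotated gene, because the table uses a start downstream of the gene's 5′ end. Thus 3 of 6 windows held the core, against 978 of the 32851 promoters in the table (2.98%) and 15 of 32 further interferon-stimulated genes (46.9%). The letters GTGGGAA, a binding motif of RBPJ, the DNA-binding partner of NICD1, were found in 1 of the 6 windows, that of Isg15, on the opposite strand, and in 5.42% of all promoters.

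Arrays had between 37041 and 40068 values, and 14.2% of the table was missing. The columns 12 h replicate 3 and 48 h replicate 3 were multiplied by -1, because Nrarp, a direct Notch target, was at -1.93 and -1.58 on them as deposited and between 1.31 and 3.24 on the other 18 arrays. The turning rests on this gene: with arrays of opposite dye paired within each time, 8 of 33 pairs correlated below 0 over all genes as deposited, 3 of them among the 6 pairs with a turned array, and 8 also after the turning. At 48 h, replicates 5, 6 and 7 had a wider spread of log2 ratios over all genes (SD 0.705 to 0.813) than the other arrays of the series (SD 0.467 to 0.641). Since Nrarp decided the sign of these arrays, its fitted log2 ratios of 2.08 at 12 h, 2.61 at 24 h and 2.29 at 48 h are a description and no test of the transfection. The table holds ratios and no levels, so the absence of a marker could not be checked. Since no untransfected cells were compared, less RNA in NICD1 cells and more in empty vector cells cannot be told apart from the ratio.

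At 12 h, none of the 8 measured antiviral effectors passed the test in either direction. At 24 h all 8 were lower in NICD1 cells, with a median of -1.78, and at 48 h all 8 were lower, with a median of -1.89. The median of all genes tested was 0.00, 0.01 and -0.01 at the 3 times. With 2 arrays turned, every one of the 8 was below 0 on every array with a value at 24 and 48 h. For all of them but Herc6 neither later range overlapped the range at 12 h. As deposited, all 8 were above 0 on 48 h replicate 3, from 1.00 (Herc6) to 2.86 (Mx2). The test was a linear model over all 20 arrays (limma, with a dye term), and a gene passed at a Benjamini-Hochberg adjusted p under 0.05 over 17051 genes. The share of all genes that passed as lower was 0.229% at 12 h, 1.30% at 24 h and 13.8% at 48 h, while 0.0528%, 0.369% and 14.0% passed as higher at these times. The 48 h shares rested on few arrays: 2355 genes passed as lower and 2392 as higher with all arrays, 1540 and 1452 without replicate 6, and 372 and 258 without replicates 5, 6 and 7, while all 8 effectors passed in each case. At 12 h, 1 of the 8 (Mx2) had an unadjusted p under 0.05, and the 95% intervals of the 8 ratios lay between -0.76 and 0.85.

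**Figure D1:**
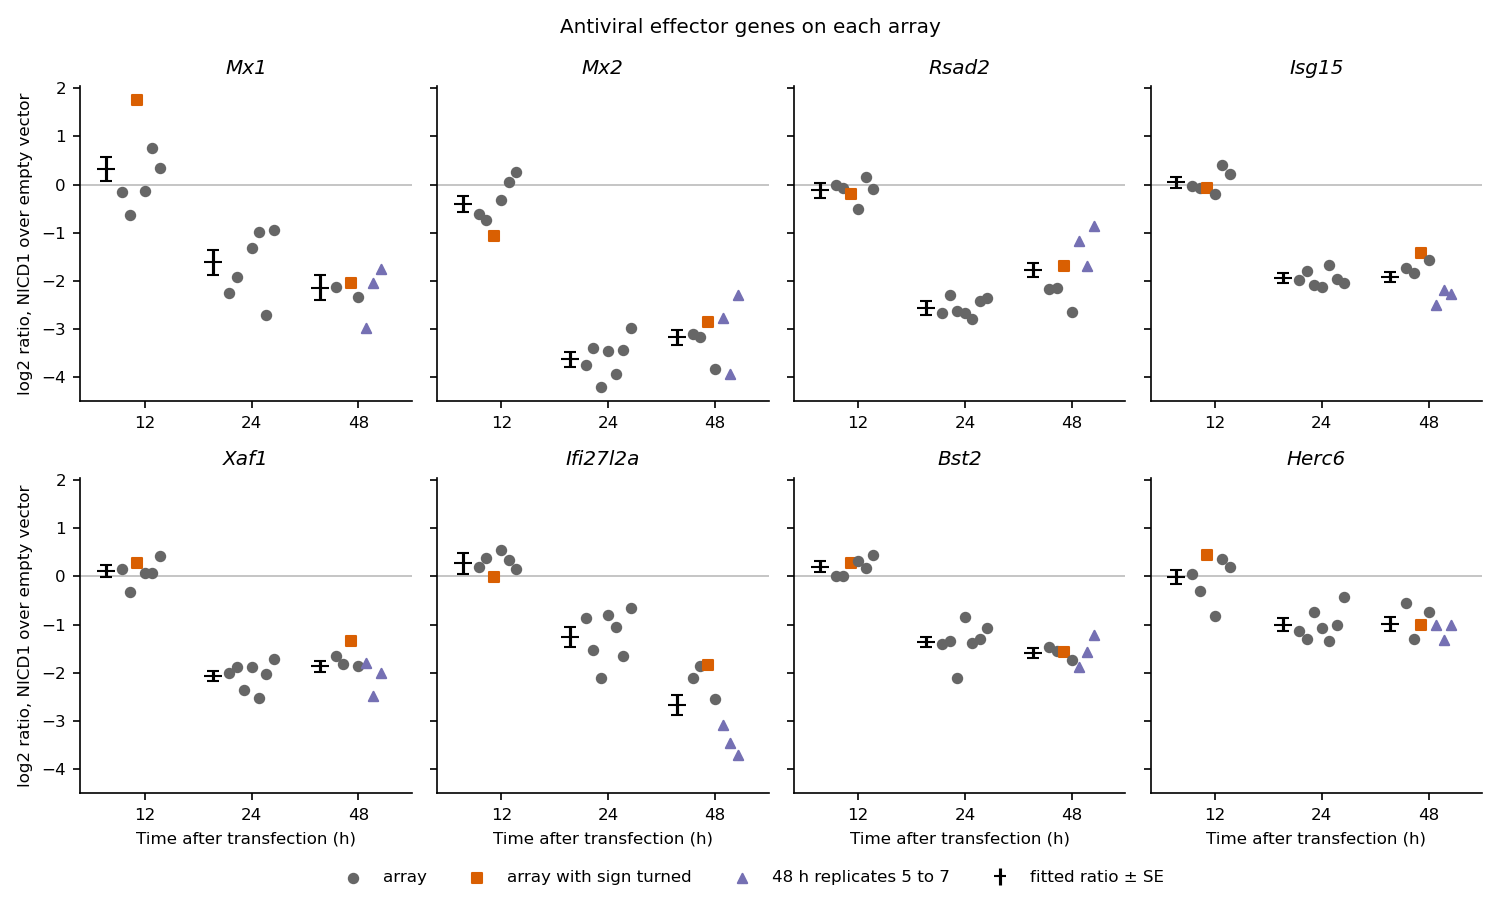
Log2 ratio of NICD1 over empty vector (y axis) on each array at 12, 24 and 48 h after transfection (x axis) for the 8 measured genes. Grey circles are arrays, orange squares the arrays with sign turned, purple triangles 48 h replicates 5 to 7, and black bars the fitted ratio ± SE; the points lie around 0 at 12 h and below 0 for all genes at 24 and 48 h.

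Mx2, the cytoplasmic of the mouse Mx GTPases, showed the lowest ratio of the 8 genes at both later times. At 12 h its log2 ratio was between -1.08 and 0.27, with a median of -0.47. At 24 h it was between -4.20 and -2.97, with a median of -3.46, and at 48 h between -3.94 and -2.28, with a median of -3.10. All arrays at 24 and 48 h thus lay below the lowest 12 h array. The fitted log2 ratio, given here and for the genes that follow with its SE from the model, was -3.63 ± 0.16 at 24 h (n = 7; adjusted p = 1.32e-11), 12.4-fold lower, and -3.17 ± 0.16 at 48 h (adjusted p = 1.08e-10), 9.02-fold lower. At 12 h it was -0.41 ± 0.17 (n = 6; adjusted p = 0.853).

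Mx1 encodes the nuclear Mx protein, which blocks influenza viruses in mice; many laboratory strains carry defective alleles of it. Both genes lie on chromosome 16. The ratio of Mx1 spread widely at 12 h, between -0.63 and 1.75 with a median of 0.10, and the highest of these values was on replicate 3, a turned array. It was between -2.70 and -0.95 at 24 h, with a median of -1.62, and between -2.99 and -1.75 at 48 h, with a median of -2.09. These later ranges did not reach the 12 h range. It was fitted at -1.61 ± 0.26 at 24 h (n = 6; adjusted p = 0.00102), 3.06-fold lower, and -2.14 ± 0.26 at 48 h (n = 6; adjusted p = 3.15e-05), 4.41-fold lower. One array lacked a value at each of these times. The 24 h call was lost when each time was fitted alone (adjusted p = 0.0649) and when the turned arrays were kept as deposited (adjusted p = 0.136).

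The 2 rows of Mx1 both carried the accession NM_010846. The first was at -1.87 ± 0.32 at 24 h and -2.65 ± 0.32 at 48 h, and the second at -1.37 ± 0.35 and -1.64 ± 0.35. Fitted by row and adjusted over all 37340 rows, the second did not pass at 24 h (adjusted p = 0.0913) and passed at 48 h (adjusted p = 0.00363). Set against Mx1 on the same array, Mx2 was lower on 6 of 6 arrays at 24 h, by a mean of -1.80 ± 0.74 (SD). An exact two-sided sign-flip test gave p = 0.0312, the smallest that 6 arrays allow, and 0.067 after adjustment over the 15 comparisons of related genes, so the difference did not pass. It was -0.73 ± 1.06 at 12 h, below 0 on 6 of 6 arrays (exact p = 0.0312, adjusted p = 0.067), and -0.91 ± 0.74 at 48 h, below 0 on 5 of 6 (exact p = 0.0625, adjusted p = 0.117), and passed at neither time. The 12 h arrays include the turned replicate 3, at -2.82 after the turning, while the others lay between -0.71 and -0.07. At 48 h the turned replicate 3 was at -0.81.

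**Figure D2:**
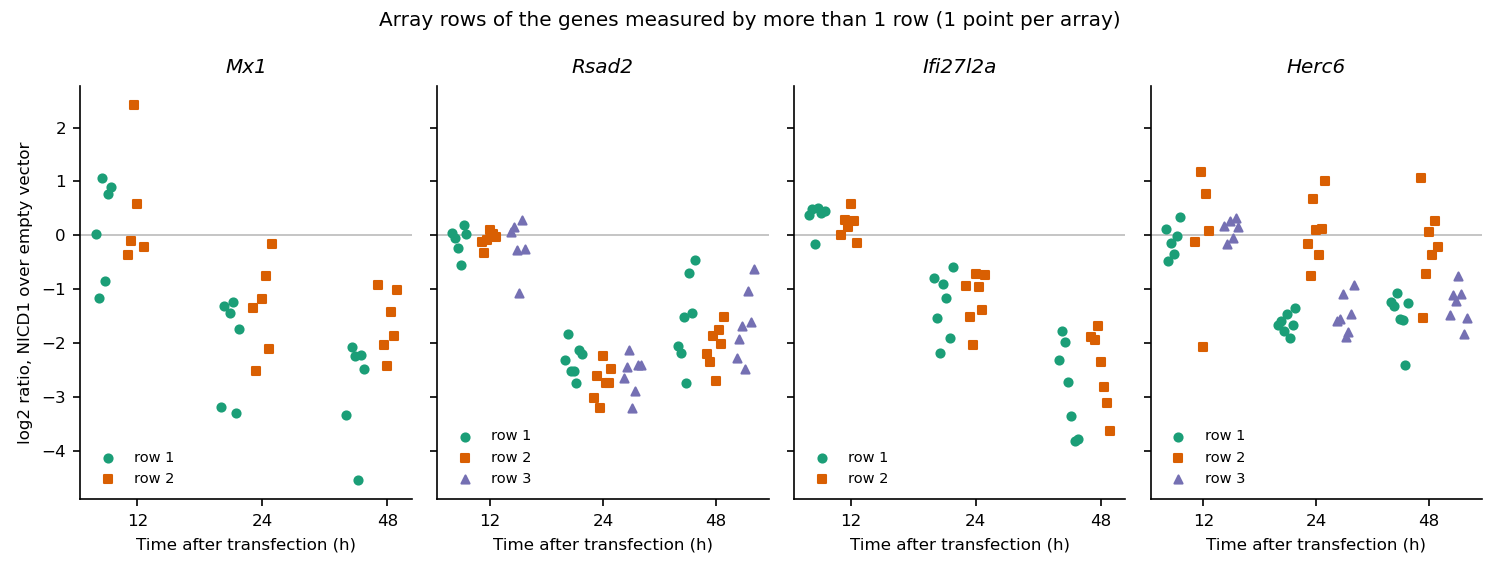
Log2 ratio of NICD1 over empty vector (y axis) at 12, 24 and 48 h (x axis) for each array row of the 4 genes measured by more than 1 row, 1 point per array, with colour and shape giving the row. The rows of Rsad2 and of Ifi27l2a move together, while row 2 of Herc6 scatters around 0 at all times.

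Rsad2 lies on chromosome 12 beside Cmpk2, which encodes a nucleotide kinase that supplies precursors in mitochondria and is itself induced by interferon. The log2 ratio of Rsad2 was between -0.51 and 0.16 at 12 h, with a median of -0.08. At 24 h its 7 arrays lay close together, between -2.79 and -2.30 with a median of -2.62. At 48 h they spread between -2.65 and -0.87, with a median of -1.69. The ratio was thus below the 12 h range on every later array, but the 24 and 48 h ranges overlapped. The fitted ratio was -2.56 ± 0.15 at 24 h (adjusted p = 5.56e-10), 5.89-fold lower, and -1.78 ± 0.15 at 48 h (adjusted p = 9.97e-08), 3.44-fold lower. All 3 rows, each with the accession NM_021384, were lower at both times, between -2.74 and -2.34 at 24 h and between -2.08 and -1.60 at 48 h.

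On the same arrays, Rsad2 was lower than Cmpk2 at 24 h on 7 of 7 arrays, by a mean of -0.47 ± 0.26 (SD; exact sign-flip p = 0.0156, the smallest that 7 arrays allow; adjusted p = 0.0469). With the median of the rows the call was lost (-0.46; adjusted p = 0.0586). Cmpk2 itself was at -2.10 ± 0.12 at 24 h and -1.64 ± 0.12 at 48 h, and passed at both. At 48 h Rsad2 was below Cmpk2 on 4 of 7 arrays, with a mean difference of -0.16 ± 0.45 (SD; exact p = 0.391, adjusted p = 0.533). The probes of different genes can compress a ratio to different degrees, and their part in such differences was not tested.

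Isg15, on chromosome 4, is the modifier itself. Its log2 ratio was between -0.19 and 0.41 at 12 h, with a median of -0.05. It lay between -2.13 and -1.67 at 24 h, with a median of -1.99, the narrowest range of the 8 genes at that time, and between -2.51 and -1.41 at 48 h, with a median of -1.83. No later array reached the 12 h range. Isg15 was fitted at -1.94 ± 0.11 at 24 h (adjusted p = 4.72e-10), 3.84-fold lower, and -1.92 ± 0.11 at 48 h (adjusted p = 1.05e-09), 3.78-fold lower.

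Herc6, on chromosome 6, encodes the main ligase for Isg15 in mouse cells. The mean of its 3 rows was between -0.82 and 0.43 at 12 h, with a median of 0.13, between -1.35 and -0.42 at 24 h, with a median of -1.08, and between -1.32 and -0.56 at 48 h, with a median of -1.01. Replicate 4 at 12 h, the lowest of its time, lay inside the 24 and 48 h ranges; the other 12 h arrays lay above them. In the model it was at -1.0 ± 0.14 at 24 h (adjusted p = 0.000128) and -0.99 ± 0.14 at 48 h (adjusted p = 9.72e-05), 2.00-fold and 1.99-fold lower.

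These means join rows that disagreed. The rows with the accessions AK007221 and AK147960 were at -1.64 ± 0.13 and -1.46 ± 0.13 at 24 h and at -1.50 ± 0.13 and -1.28 ± 0.13 at 48 h. The row with the accession AK037442 was at 0.10 ± 0.32 at 24 h, with arrays between -0.76 and 1.00, and at -0.20 ± 0.32 at 48 h, and passed at neither time (row-wise adjusted p = 0.998 and 0.731). With the median of the rows in place of the mean, Herc6 was at -1.41 at 24 h and -1.22 at 48 h. Against Isg15 on the same array, the mean of the Herc6 rows was less reduced: Isg15 minus Herc6 was -0.95 ± 0.45 at 24 h and -0.94 ± 0.40 at 48 h (SD), below 0 on 7 of 7 arrays at each time (exact p = 0.0156, adjusted p = 0.0469). The 48 h arrays include the turned replicate 3, at -0.41 after the turning. With the median of the rows the mean differences were -0.54 at 24 h and -0.71 at 48 h and did not pass (adjusted p = 0.067 and 0.0586).

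Of 5 genes that attach Isg15 to proteins or remove it, 4 were lower at 24 h and 4 at 48 h, and none passed at 12 h. The shares of all genes that passed as lower were 1.30% at 24 h and 13.8% at 48 h. The list's median was -0.91 at 24 h and -0.76 at 48 h. Usp18, the protease that removes Isg15 and restrains the interferon receptor, was at -2.51 ± 0.19 at 24 h and -2.32 ± 0.19 at 48 h. Uba7, which activates Isg15, was at -1.52 ± 0.14 and -0.76 ± 0.14, and Ube2l6, the conjugating enzyme, at -0.91 ± 0.14 and -1.43 ± 0.14, at 24 and 48 h in each case. Trim25, a ubiquitin ligase reported to conjugate Isg15 in human cells, was at -0.69 ± 0.09 and -0.60 ± 0.09. Arih1, a ubiquitin ligase gene, did not pass, at -0.05 ± 0.10 at 24 h and 0.26 ± 0.10 at 48 h (adjusted p = 0.0549). Usp18 was more reduced than Isg15 on 7 of 7 arrays at 24 h, with Isg15 minus Usp18 at 0.53 ± 0.36 (SD; exact p = 0.0156, adjusted p = 0.0469). Both genes have 1 row, so the median of rows left this difference unchanged. Its adjusted p rose to 0.0586 in that setting only because other comparisons in the adjustment changed. At 48 h the difference was 0.36 ± 0.41 and did not pass (exact p = 0.0938, adjusted p = 0.156).

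**Figure D3:**
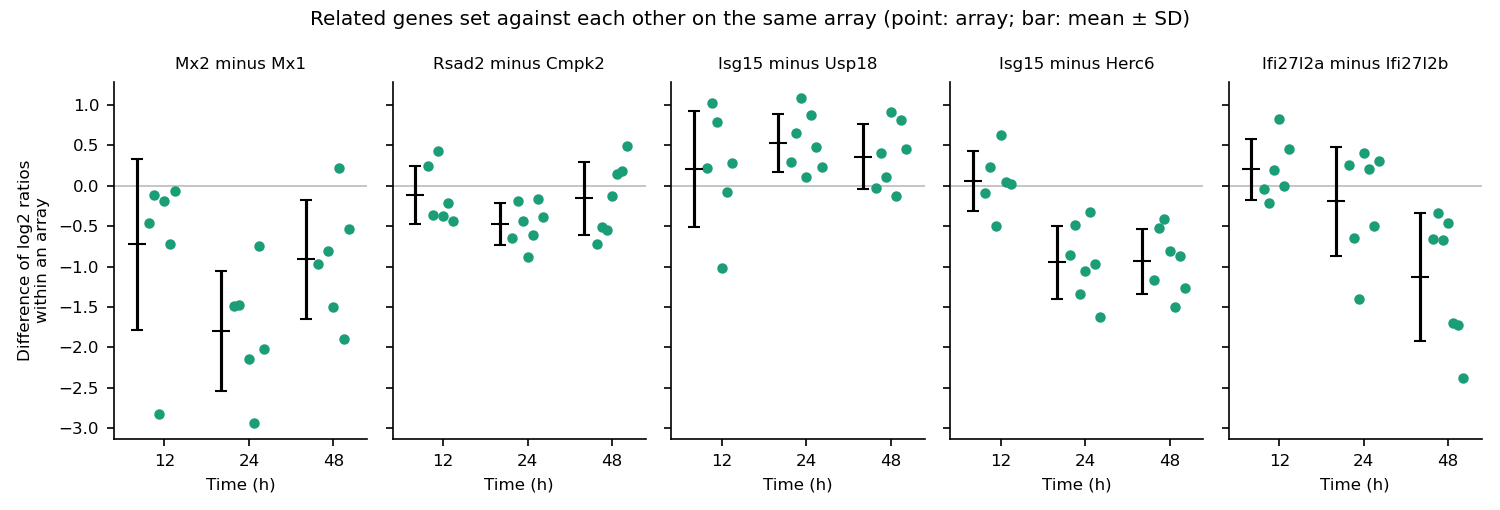
Difference of the log2 ratios of 2 related genes within an array (y axis) at 12, 24 and 48 h (x axis); points are arrays and bars the mean ± SD. Isg15 minus Herc6 lies below 0 on all arrays at 24 and 48 h, and Ifi27l2a minus Ifi27l2b on all arrays at 48 h. Replicate 3 at 12 h and 48 h is shown with its sign turned.

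Bst2, on chromosome 8, was measured by 1 row. Its log2 ratio was between 0.00 and 0.44 at 12 h, with a median of 0.22, above 0 on all 6 arrays. It was between -2.10 and -0.85 at 24 h, with a median of -1.33, and between -1.88 and -1.23 at 48 h, with a median of -1.57. With the arrays turned, the ratio was thus never below 0 at 12 h and never above it later. As deposited, it was at -0.28 on 12 h replicate 3 and 1.57 on 48 h replicate 3. Fitted values were 0.20 ± 0.11 at 12 h (n = 6; adjusted p = 0.994), -1.36 ± 0.10 at 24 h (n = 7; adjusted p = 2.58e-08), 2.57-fold lower, and -1.59 ± 0.10 at 48 h (adjusted p = 3.72e-09), 3.01-fold lower.

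Ifi27l2a encodes a small hydrophobic protein of the Ifi27 family and lies on chromosome 12 next to its relative Ifi27l2b. Its log2 ratio was between 0.00 and 0.54 at 12 h, with a median of 0.27. At 24 h it was between -2.11 and -0.66, with a median of -1.05, and at 48 h between -3.71 and -1.84, with a median of -2.54. The 24 and 48 h ranges overlapped each other and neither overlapped the 12 h range. The model gave -1.25 ± 0.21 at 24 h (adjusted p = 0.000841), 2.39-fold lower, and -2.67 ± 0.21 at 48 h (adjusted p = 3.32e-08), 6.37-fold lower. The 24 h call was lost with the turned arrays as deposited (adjusted p = 0.251). Both rows, each with the accession NM_029803, gave this pattern, at -1.31 ± 0.23 and -1.20 ± 0.20 at 24 h and -2.84 ± 0.23 and -2.51 ± 0.20 at 48 h.

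Ifi27l2b was at -1.05 ± 0.12 at 24 h and -1.53 ± 0.12 at 48 h, and passed at both. Ifi27l2a was below it on 7 of 7 arrays at 48 h, by -1.13 ± 0.79 (SD; exact p = 0.0156, adjusted p = 0.0469), and on 3 of 7 at 24 h, by -0.19 ± 0.67 (exact p = 0.531, adjusted p = 0.569). The 48 h arrays include the turned replicate 3, at -0.66 after the turning. With the median of rows for all genes the 48 h difference was the same and its adjusted p, taken over the same comparisons, was 0.0586. Ifi27, another member of the family, moved the other way at 48 h, at 0.73 ± 0.09 (adjusted p = 1.78e-05), when 14.0% of all genes passed as higher. It did not pass at 24 h, at -0.27 ± 0.09 (adjusted p = 0.241).

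Xaf1, on chromosome 11, encodes XIAP-associated factor 1, which in human cells binds XIAP and counters its block on caspases. The log2 ratio of its 1 row was between -0.33 and 0.42 at 12 h, with a median of 0.12. It was between -2.52 and -1.71 at 24 h, with a median of -2.01, and between -2.47 and -1.35 at 48 h, with a median of -1.83. All later arrays lay below the 12 h range. Xaf1 was fitted at -2.07 ± 0.11 at 24 h (adjusted p = 2.19e-10), 4.20-fold lower, and -1.87 ± 0.11 at 48 h (adjusted p = 1.41e-09), 3.65-fold lower.

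Of 8 measured genes of XIAP and the inhibitor of apoptosis family with their partners, none passed at 24 h, when the list's median was 0.05. At 48 h, 1 was lower and 2 higher, with a median of -0.04, when 13.8% of all genes passed as lower and 14.0% as higher. Xiap itself was at -0.19 ± 0.13 at 24 h (adjusted p = 0.818) and -0.02 ± 0.13 at 48 h (adjusted p = 0.915). Those that passed at 48 h were Htra2, a mitochondrial protease that binds inhibitors of apoptosis, at -0.31 ± 0.09, Casp9, the initiator caspase that XIAP inhibits, at 0.76 ± 0.16, and Birc6, a large inhibitor of apoptosis with ligase activity, at 0.96 ± 0.25.

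Ifi44 has no value here. Its neighbour on chromosome 3, Ifi44l, was measured by 2 rows and did not pass at any time, at 0.12 ± 0.19, -0.05 ± 0.17 and -0.05 ± 0.17 at 12, 24 and 48 h. The list of neighbours and relatives of the effectors also holds Cmpk2, Ifi27l2b, Ifi27 and the Herc family. Of its 8 measured genes, 2 were lower at 24 h, and 3 were lower and 1 higher at 48 h. The shares of all genes were 1.30% lower at 24 h, and 13.8% lower and 14.0% higher at 48 h. Herc1, Herc2 and Herc3 passed at no time, and Herc4 was at -0.43 ± 0.15 at 48 h (adjusted p = 0.0331) without passing at 24 h (-0.28 ± 0.15; adjusted p = 0.675).

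In order of the fitted 24 h ratio, from the lowest, the genes were Mx2 (-3.63), Rsad2 (-2.56), Xaf1 (-2.07), Isg15 (-1.94), Mx1 (-1.61), Bst2 (-1.36), Ifi27l2a (-1.25) and Herc6 (-1.0). Only Mx2 and Rsad2 had ranges over the arrays that did not overlap; every other pair of neighbours in this order overlapped. At 48 h the order was Mx2 (-3.17), Ifi27l2a (-2.67), Mx1 (-2.14), Isg15 (-1.92), Xaf1 (-1.87), Rsad2 (-1.78), Bst2 (-1.59) and Herc6 (-0.99), and all neighbours overlapped. With the median of its rows, Herc6 was at -1.41 at 24 h, below Bst2 and Ifi27l2a. Ifi27l2a thus stood seventh at 24 h and second at 48 h with the mean of rows, while Rsad2 stood second and sixth.

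The ratios of the 3 times were then compared with each other in the same model. From 12 to 24 h all 8 genes passed as lower, with a median change of -1.96, and between 12 and 48 h all 8 passed as lower, with a median change of -1.97. The share of all genes that passed as lower was 0.768% for 24 h minus 12 h and 4.90% for 48 h minus 12 h. With the 2 turned arrays as deposited, 3 and 1 of the 8 passed in these comparisons. The 24 h minus 12 h change of Herc6 (-0.99 ± 0.21; adjusted p = 0.0176) lost its call without any one of 12 h replicates 3, 5 and 6 and 24 h replicates 2 and 5 (-0.94 to -0.90; adjusted p up to 0.0602) and with both turned arrays left out (adjusted p = 0.0805). Mx1 lost this call in a fit per row (adjusted p = 0.0564), and Ifi27l2a with the replicate number as a block (adjusted p = 0.0592).

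Between 24 and 48 h, 1 of the 8 genes passed. Ifi27l2a was lower at 48 h than at 24 h by -1.42 ± 0.29 (adjusted p = 0.0375), against 0.985% of all genes that passed as lower. That call was lost, with changes between -1.51 and -1.22, without any one of 12 h replicate 5, 24 h replicates 1, 2, 4, 5, 6 and 7, and 48 h replicates 4, 5, 6 and 7, with adjusted p up to 0.099. Without 48 h replicates 5, 6 and 7 the change was -0.82 (adjusted p = 0.307), and with all arrays scaled to 1 spread it was -0.68 (adjusted p = 0.0998). Rsad2 had the opposite sign, at 0.78 ± 0.21 with a 95% interval of 0.34 to 1.22, and did not pass (adjusted p = 0.0551); 1.07% of all genes passed as higher. Both of these shares moved with single arrays: 168 genes passed as lower and 182 as higher with all arrays, and between 3 and 1001 as lower and 6 and 1102 as higher when 1 array was left out. It passed without any one of 48 h replicates 1, 2 and 3 (adjusted p down to 0.0277), was 0.39 without 48 h replicates 5, 6 and 7 (adjusted p = 0.483), and was 1.34 with the arrays scaled (adjusted p = 0.0477).

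The 48 h arrays behind this were uneven. Ifi27l2a was at -2.11, -1.86, -1.84 and -2.54 on replicates 1, 2, 3 and 4 and at -3.08, -3.46 and -3.71 on replicates 5, 6 and 7. Rsad2 was at -2.17, -2.15, -1.68 and -2.65 on replicates 1 to 4 and at -1.16, -1.69 and -0.87 on replicates 5 to 7. On replicates 5, 6 and 7, the arrays with the widest spread over all genes, Ifi27l2a was lower than on any other array, and Rsad2 was higher than on replicates 1, 2 and 4. Without these 3 arrays Rsad2 was at -2.16 and Ifi27l2a at -2.08 at 48 h, and both passed. The part of these arrays in the difference between the times was otherwise not tested.

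The changes of the effectors were shared by further interferon-responsive genes. Of 33 further interferon-stimulated genes, 0 passed at 12 h, and all 33 were lower at 24 h (median -1.68) and at 48 h (median -1.53). This list and the next were chosen with earlier results of these data known, so their counts are a description. Of all genes, 1.30% passed as lower at 24 h and 13.8% at 48 h. Iigp1, an immunity-related GTPase, was at -3.31 ± 0.20 at 24 h, Ifit3b at -3.22 ± 0.26 and Ifit1, which binds foreign 5′ ends of RNA, at -2.90 ± 0.13. Of 24 further antiviral effectors, 17 were lower at 24 h (median -1.03) and 21 at 48 h (median -0.98), and none at 12 h. Ddx60, a helicase gene of the RNA sensing pathway, was at -2.20 ± 0.12 at 24 h, Zbp1, a sensor of Z-form nucleic acid, at -2.18 ± 0.14, and Sp110, a nuclear body gene, at -1.97 ± 0.09. Apobec3, Slfn5 and Ifitm1 passed at no time.

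Of 4 measured interferon ligands, Ifnb1, which encodes interferon beta, passed as lower at 12 h, at -2.35 ± 0.32 with arrays between -5.02 and -1.38 (adjusted p = 0.000462). With the turned arrays as deposited this call was lost, since 0 of all genes passed as lower at 12 h. Ifnb1 was at -3.44 ± 0.30 at 24 h and -3.17 ± 0.30 at 48 h. Whether its ratio at 12 h differed from those of the effectors was not tested. Ifna4 was at -2.36 ± 0.25 and -1.35 ± 0.25 and Ifna2 at -1.81 ± 0.26 and -1.52 ± 0.26 at 24 and 48 h; both passed at these times and not at 12 h. Ifne did not pass at any time. Of all genes, 0.229% passed as lower at 12 h, 1.30% at 24 h and 13.8% at 48 h.

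Among 14 interferon receptor and signal transducer genes, 5 were lower at 24 h, and 6 were lower and 2 higher at 48 h. The shares of all genes were 1.30% lower at 24 h, and 13.8% lower and 14.0% higher at 48 h. The receptor chains Ifnar1 and Ifnar2 passed at no time, at 0.13 ± 0.08 and -0.13 ± 0.08 at 24 h. The lower ones included Irf7, a transcription factor that drives interferon genes, at -2.12 ± 0.24 at 24 h and -2.76 ± 0.24 at 48 h, the transcription factor genes Stat2, at -1.67 ± 0.14 and -1.83 ± 0.14, and Irf9, at -0.90 ± 0.19 and -0.67 ± 0.19, and the feedback inhibitor Socs1, at -1.23 ± 0.16 and -0.68 ± 0.16. Irf1, another transcription factor of the pathway, was at -0.37 ± 0.08 at 24 h and -0.34 ± 0.08 at 48 h. Il10rb, a shared chain of the lambda interferon receptor, was lower at 48 h alone (-0.25 ± 0.09), and Ifnlr1, its partner chain, and Socs3, an inhibitor of cytokine receptors, were higher at 48 h, at 0.50 ± 0.14 and 0.78 ± 0.14. Irf7, Irf9, Stat2 and Usp18 are also among the 33 further interferon-stimulated genes.

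**Figure D4:**
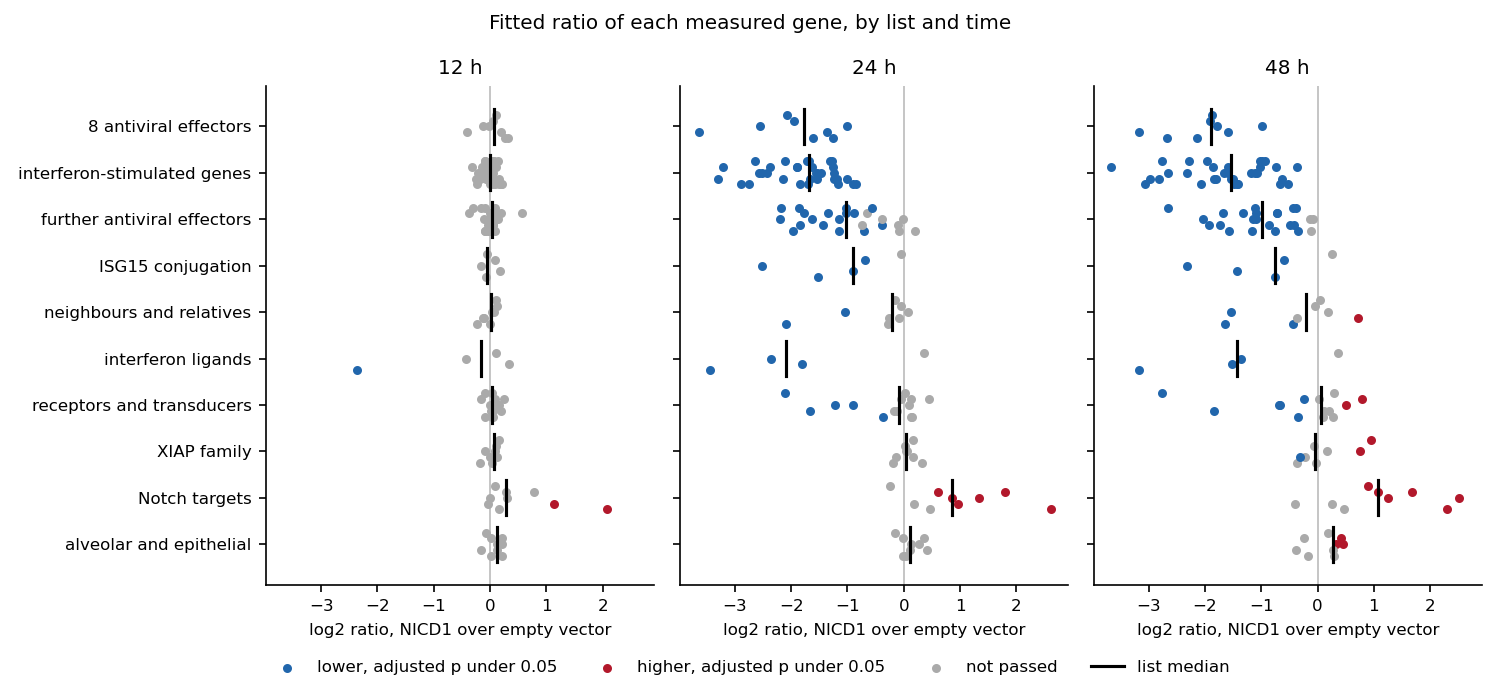
Fitted log2 ratio of NICD1 over empty vector (x axis) of each measured gene, by gene list (y axis), at 12, 24 and 48 h; blue and red points passed as lower and higher, grey points did not pass, and black bars are list medians. All 8 antiviral effectors and all 33 further interferon-stimulated genes are blue at 24 and 48 h and grey at 12 h.

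The genes whose values followed the mean of the 8 effectors most closely over the 20 arrays, among 14375 other genes with values on all of them, were Oas1f (Pearson r = 0.979), Trim30a (0.971), Gbp9 (0.970), Ifi202b (0.969), Parp12 (0.969) and Phf11a (0.967). These correlations describe arrays of 3 times, which share the step from 12 h to the later times, and dye effects were taken off first. Oas1f, of the oligoadenylate synthetase family, was at -2.10 ± 0.10 at 24 h and -2.09 ± 0.10 at 48 h. Trim30a, a tripartite motif gene, was at -2.74 ± 0.11 and -3.06 ± 0.11, and Gbp9, of the guanylate-binding family, at -1.37 ± 0.11 and -1.40 ± 0.11.

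Genes that mark cell types were counted in the same way, and 48 h counts stand against the 13.8% lower and 14.0% higher of all genes. None of 9 alveolar type II and epithelial markers was lower at any time, and 3 were higher at 48 h, between 0.32 and 0.45 (Abca3, Krt8 and Nkx2-1). Of 7 macrophage and leukocyte markers, Lyz2 was lower at 12 h (-1.45) and none passed at 24 or 48 h. At 12 h, 0.229% of all genes passed as lower, and 0 genes did with the turned arrays as deposited. Of plasmacytoid dendritic cell markers besides Bst2, which also marks these cells, Tcf4 and Ccr9 were measured and passed at no time. None of 5 endothelial markers passed, and 1 of 6 fibroblast markers did, Col1a1, higher at 48 h (1.10). Of 10 housekeeping genes none passed at 12 or 24 h, and at 48 h Ppia, Rpl13a and Tbp were lower (-0.69 to -0.48) and Gusb higher (0.42).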

How the data were processed

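The authors deposited 1 table of log2 ratios, 1 column per dual-colour array, and limma was used to make it, per the submitters' processing notes; its version, the background correction, the normalisation and the ratios' direction were not given in the sources used here. The scale was judged from the values, and column medians lay between -0.0179 and 0.0195. From the deposited log2 values, 2 columns were multiplied by -1. Rows with 1 symbol in the array annotation (33653) were averaged per gene, leaving out those with fewer than 4 values at any time. limma 3.58.1 (R 4.3.3) fitted 3 time coefficients and a dye term over all 20 arrays, with NICD1 RNA in Cy5 on 3 arrays of each time. Two-sided p-values were adjusted by Benjamini-Hochberg over 17051 genes; the number of arrays limits the precision. Related genes were compared within arrays by exact two-sided sign-flip tests. These were repeated with the median of rows, and not with the turned arrays as deposited or left out. The fits were run on simulated data with planted changes at 24 h only and 1 SD per gene on all arrays. The wider spread of 48 h replicates 5 to 7 was not simulated. Named were the effectors, the passing genes of the 4 lists closest to them (Isg15 conjugation, neighbours and relatives, ligands, receptors and transducers), the 3 largest 24 h ratios of further lists, the 6 genes most like the effectors, and Nrarp; other genes were named after their values were seen. The effectors and lists were chosen with earlier results of these data known. The alternatives covered the turned arrays, the dye term, separate fits, row summaries, filters, scaling, centring, weights, robust fitting, 48 h replicates 5 to 7, single arrays and a replicate block. Same-numbered arrays of different times did not deviate together (19 pairs, correlations -0.13 to 0.14), so numbers were not taken as pairs.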

Additional observations from a re-analysis of the deposited data

Results flagged for a closer look

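A test of the difference between times passed for 17 of the 24 differences examined over the 8 antiviral effectors (limma, adjusted p under 0.05 over all genes). For the NICD1 ratio at 24 h minus that at 12 h these were Mx1 (-1.93), Mx2 (-3.22), Rsad2 (-2.44), Isg15 (-1.99), Xaf1 (-2.18), Ifi27l2a (-1.52), Bst2 (-1.57) and Herc6 (-0.99). For 48 h minus 12 h they were Mx1 (-2.46), Mx2 (-2.77), Rsad2 (-1.66), Isg15 (-1.96), Xaf1 (-1.98), Ifi27l2a (-2.94), Bst2 (-1.79) and Herc6 (-0.98). For 48 h minus 24 h it was Ifi27l2a (-1.42). Of all genes, 0.768%, 4.90% and 0.985% passed as lower in these 3 comparisons. With the 2 turned arrays as deposited, 3, 1 and 0 of the 8 effectors passed as lower in them. With the 2 arrays turned, no single array stood far from the others of its time for any effector, in 24 groups examined with Dixon's test. As deposited, the 8 effectors were between 1.00 (Herc6) and 2.86 (Mx2) on 48 h replicate 3, and below 0 on the other 48 h arrays with a value. Dixon's test was not run on the deposited signs, so its result does not bear on the turned arrays before the turning.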

How the results depend on the processing

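At 24 h, 6 effectors passed as lower with 12 h and 48 h replicate 3 as deposited, 7 with each time fitted alone (without Mx1) and 8 otherwise; at 48 h all 8 passed. Rows with values on all 20 arrays left out Mx1, and the other 7 passed at both times. Leaving out any single array kept 8 lower at both times. Kept as deposited, the turned arrays left 3 of 8 lower for 24 h minus 12 h and 1 for 48 h minus 12 h. The 1 effector lower for 48 h minus 24 h became 0 with those arrays as deposited, a fit per row, arrays scaled to 1 median absolute ratio, without 48 h replicates 5, 6 and 7 and with the replicate block, and between 0 and 1 without single arrays. The 0 higher became 1 with the turned arrays left out, rows with values on all arrays, or arrays scaled, and lay between 0 and 1 without single arrays. For 24 h minus 12 h, 7 to 8 were lower without single arrays; for 48 h minus 12 h, Herc6 lost its call without 48 h replicates 5, 6 and 7 (adjusted p = 0.0896).

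Counts over all genes also moved. With the turned arrays as deposited they were 0 lower and 0 higher at 12 h, 26 higher at 24 h, 45 lower for 24 h minus 12 h, 1 lower and 1 higher for 48 h minus 24 h, and 172 lower for 48 h minus 12 h. With them left out, 885 were lower and 1001 higher for 48 h minus 24 h. With each time fitted alone, 13 were lower and 5 higher at 12 h and 167 lower and 67 higher at 48 h. A fit per row gave 16 higher at 12 h, 347 lower at 24 h, 4406 lower and 4664 higher at 48 h, and 4 lower and 10 higher for 48 h minus 24 h. Arrays scaled to 1 spread gave 14 higher at 12 h, 350 lower and 137 higher at 24 h, and 1564 higher at 48 h. Array weights gave 59 lower and 18 higher at 12 h, 352 lower and 151 higher at 24 h, and 299 lower and 343 higher for 48 h minus 24 h. Without 48 h replicates 5, 6 and 7, 15 were higher at 12 h, 97 higher at 24 h, 372 lower and 258 higher at 48 h, 3 lower and 5 higher for 48 h minus 24 h, and 205 lower for 48 h minus 12 h. For 48 h minus 24 h, no dye term gave 62 lower and 66 higher, no filter 36 and 35, rows on all arrays 616 and 707, and robust fitting 100 lower.

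The replicate block, for numbers that did not pair the samples, gave 3 lower and 6 higher genes for 48 h minus 24 h and 325 lower for 48 h minus 12 h; with it Ifi27l2a lost its 24 h minus 12 h call (adjusted p = 0.0592). Without single arrays, genes lower numbered 26 to 43 (and 8 to 11 higher) at 12 h, 194 to 233 (and 46 to 70 higher) at 24 h, 1540 to 2658 (and 1452 to 2685 higher) at 48 h, 114 to 141 for 24 h minus 12 h, 3 to 1001 (and 6 to 1102 higher) for 48 h minus 24 h, and 351 to 1368 for 48 h minus 12 h. With the median of rows, the adjusted p of every comparison of related genes that had passed rose above the threshold: -0.46 for Rsad2 minus Cmpk2, 0.53 for Isg15 minus Usp18, and -0.54 for Isg15 minus Herc6 at 24 h, and -0.71 for Isg15 minus Herc6 and -1.13 for Ifi27l2a minus Ifi27l2b at 48 h. For Isg15 minus Usp18 and Ifi27l2a minus Ifi27l2b the difference itself was unchanged, and only the adjustment over the comparisons moved. Otherwise the causes were not tested. Signal over background was not judged, since the table holds ratios only.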
